A study of Drosophila melanogaster with 6 samples.

Results

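The dosage compensation complex of Drosophila males was examined in RNA-seq libraries of whole pharate adult males, the stage shortly before the fly leaves the pupal case. The 8 genes described are msl-1, msl-2, msl-3, mle and mof, which encode the protein subunits, roX1 and roX2, which encode its RNA subunits, and JIL-1, which encodes a kinase enriched on the male X chromosome. They were chosen by name, and the values come from the rows with these symbols in a table of 15115 genes. Each value is an RPKM, the reads on a gene normalised to the length of the gene and to all reads counted on genes in that library, so that it can be compared between genes of different length.

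The genotypes compared were 3 in number with 2 libraries each, every library made from RNA of a pool of whole males collected 96 to 108 hours after puparium formation. H3.3B K27R males carried a change of lysine 27 to arginine in the X-linked gene for the replication-independent histone H3.3B, while their H3.3A genes were wild type. The change removes the lysine that can be acetylated or methylated at this position. Double H3.3 K27R males carried the same H3.3B allele and were in addition homozygous for a K27R allele of H3.3A, so that no H3.3 with lysine 27 was encoded, and are called the double mutant. Wild type males were yw, and the mutant genotypes were also yw. The values are gene totals and do not show the substituted codon, so they are no check of the genotype labels.

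Males have a single X chromosome, and in flies the transcription of that chromosome is raised to match the paired X chromosomes of females. MSL-1 is the scaffold of the complex that does this, and MSL-2 is the subunit that restricts it to males, because the female protein Sex-lethal blocks translation of msl-2 messenger RNA. MOF acetylates lysine 16 of histone H4 on the X, MSL-3 recognizes methylated lysine 36 of histone H3 in transcribed genes, and MLE is an RNA helicase that remodels the roX RNAs. The roX RNAs are transcribed from the X, differ in size, and can stand in for each other in the complex. RNA abundance is what was measured here, and neither the assembly of the complex nor its binding to the X was.

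The libraries held between 1535941 and 2118264 reads on genes. Wild type replicate 2 was the deepest and double mutant replicate 2 the shallowest. Genes defining other tissues were read to check the label of whole males. The 7 yolk protein and eggshell genes of females summed to 2.51 to 3.42 RPKM in H3.3B K27R, 2.01 to 3.04 RPKM in the double mutant and 0.608 to 4.1 RPKM in wild type, with Yp1 and Cp36 at 0 in every library. The 11 testis genes summed to 1054.3 to 1074.7 RPKM in H3.3B K27R and 1017.2 to 1067.4 RPKM in the double mutant, against 1416.3 to 1561.6 RPKM in wild type. In the same order of genotypes, the 6 neuron genes summed to 242.2 to 254.9, 218.5 to 245.0 and 243.2 to 268.4 RPKM. The 6 flight muscle genes summed to 10943.7 to 11103.5, 11304.4 to 11727.7 and 10795.6 to 11619.5 RPKM. Sums of the 5 accessory gland genes were 652.6 to 659.0, 467.7 to 824.7 and 569.1 to 1422.1 RPKM. For the testis genes the ranges of both mutant genotypes lay below that of wild type. In each of the other lists the mutant ranges overlapped that of wild type. In these whole animals, fewer cells of a type and less RNA per cell cannot be told apart.

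Transcripts of all 8 genes were present in all 6 libraries, and all 8 passed the filter on low values, a mean of at least 1 RPKM over the 6 libraries. Ordered by their mean over the 6 libraries, roX1 had 177.4 ± 18.0 RPKM, roX2 had 30.4 ± 4.35 RPKM and JIL-1 had 16.0 ± 1.5 RPKM (SD, n = 6 each). The ranges of these 3 genes did not overlap each other or those of the remaining 5. The protein subunits followed with 7.4 ± 1.0 RPKM for mle, 7.2 ± 1.85 RPKM for msl-2, 7.01 ± 1.15 RPKM for msl-1, 6.47 ± 2.43 RPKM for msl-3 and 3.97 ± 0.753 RPKM for mof (SD, n = 6 each). From mle to msl-3 the ranges overlapped, so that no order among these 4 genes exceeds the spread between libraries. The range of mof, 3.24 to 5.0 RPKM, lay below those of mle, msl-2 and msl-1 but overlapped that of msl-3, which was 4.15 to 10.9 RPKM.

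**Figure D1:**
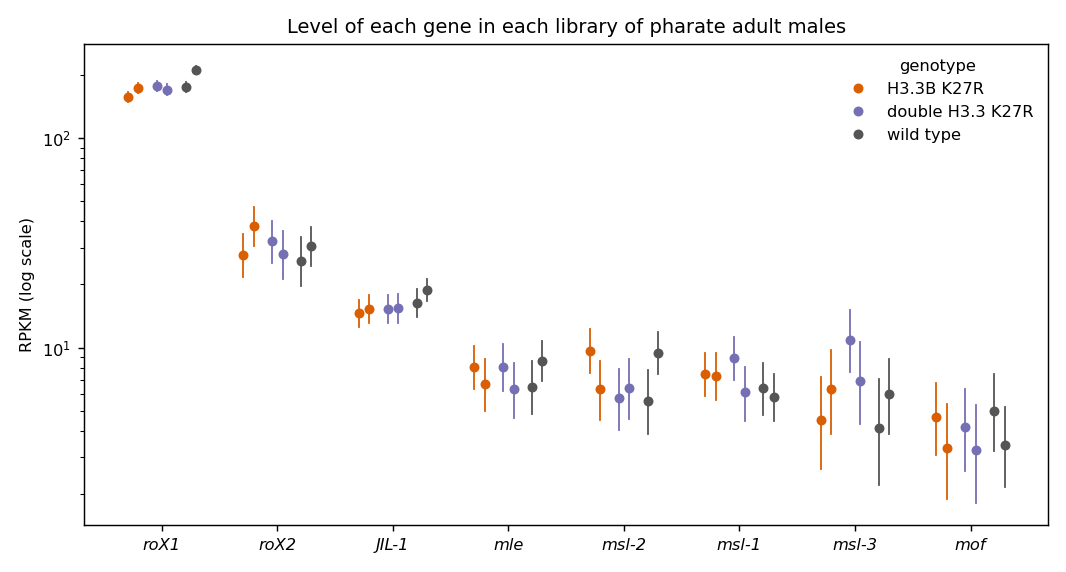
RPKM of the 8 genes in each library, on a log axis, with H3.3B K27R in orange, double H3.3 K27R in violet and wild type in grey. Each point is 1 library and each bar its exact 95% Poisson interval, which covers counting error only. roX1 lies between 157.5 and 211.4 RPKM and mof between 3.24 and 5.0 RPKM. For msl-3 both double H3.3 K27R libraries lie above the other 4.

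The question for each gene was whether its transcript level differed between males with K27R changes in H3.3 and wild type males. Differences were tested with limma on log2(RPKM + 1) across the 11304 genes that passed the filter, and p values were adjusted by the Benjamini-Hochberg method. Calls required an adjusted p below 0.01 together with a log2 fold change beyond 1 in either direction. None of the 8 genes was called in any comparison, 0 of 8 had an adjusted p below 0.05 and 0 of 8 an unadjusted p below 0.05 in limma. Over all genes tested, 0.00885% were called in H3.3B K27R against wild type, 0.133% in the double mutant against wild type and 0.0619% in the double mutant against H3.3B K27R. The corresponding shares with an unadjusted p below 0.05 were 12.4%, 14.8% and 12.5%. With voom weights on reads recovered from the RPKM values, 1 of the 8 genes, msl-3 in the double mutant against wild type, had an unadjusted p below 0.05, with an adjusted p of 0.312. Quantile normalization also gave msl-3 an unadjusted p below 0.05 in that comparison, with an adjusted p of 0.329 in limma. The lowest adjusted p of a member with voom was 0.382 in H3.3B K27R against wild type and 0.401 in the double mutant against H3.3B K27R.

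roX1, the larger of the RNA subunits, was the most abundant of the 8 transcripts and ranked above at least 95.8% of the genes tested in every library. It lies on the X (chrX:3857230-3862697, minus strand, BDGP6 annotation) and its annotation overlaps that of ec, on the other strand, by 392 bases. The strand setting of the authors' read counting is not given in the sources used here, so reads from that overlap cannot be assigned. The gene length recovered for roX1 from the RPKM values was 4421 bases, against 5468 exon bases in BDGP6. The overlap in the authors' build may therefore differ, and the RPKM of roX1 rests on the shorter length. roX1 had 157.5 and 173.0 RPKM in H3.3B K27R and 176.9 and 170.2 RPKM in the double mutant, against 175.4 and 211.4 RPKM in wild type. Both H3.3B K27R libraries lay below both wild type libraries, whereas double mutant replicate 1 lay between the wild type libraries. For roX1 the log2 fold change was -0.22 ± 0.12 (SE, 95% interval -0.52 to 0.08, adjusted p = 0.517 in limma) in H3.3B K27R and -0.15 ± 0.12 (SE, -0.45 to 0.15, adjusted p = 0.645 in limma) in the double mutant, each against wild type. These comparisons share the wild type libraries, and wild type replicate 2 was the highest of the 6. Without it the log2 fold changes of roX1 were -0.09 in H3.3B K27R and -0.02 in the double mutant. Without wild type replicate 1 they were -0.36 in H3.3B K27R, where the unadjusted p was below 0.05 and the adjusted p 0.536 in limma, and -0.28 in the double mutant.

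roX1 had the most reads of the 8 genes, from 1156 to 1980 per library, and its counting error was correspondingly small. The exact 95% Poisson interval of the lowest value was 149.2 to 166.2 RPKM, in H3.3B K27R replicate 1, and that of the highest was 202.2 to 221.0 RPKM, in wild type replicate 2. The wild type libraries themselves differed by 0.27 in log2, against a median of 0.263 for the replicate difference over all genes tested. The difference between the mutant genotypes was 0.07 ± 0.12 on the log2 scale (SE, 95% interval -0.23 to 0.37, adjusted p = 0.876 in limma), the double mutant over H3.3B K27R.

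roX2, the smaller of the RNA subunits, lies on the X as well (chrX:11579065-11580432, plus strand, BDGP6 annotation) and overlaps no other annotated gene. It had 27.7 and 38.1 RPKM in H3.3B K27R and 32.1 and 27.9 RPKM in the double mutant, against 26.0 and 30.5 RPKM in wild type, from 57 to 89 reads per library. The genotypes overlapped, and H3.3B K27R replicate 2 was the highest library. Its log2 fold change was 0.2 ± 0.19 (SE, 95% interval -0.26 to 0.65, adjusted p = 0.715 in limma) in H3.3B K27R and 0.08 ± 0.19 (SE, -0.37 to 0.54, adjusted p = 0.885 in limma) in the double mutant, each against wild type.

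Because the roX RNAs are interchangeable in the complex, their balance was compared within each library, where depth cancels. roX2 made up 14.9% and 18.0% of the summed RPKM of both RNAs in H3.3B K27R and 15.4% and 14.1% in the double mutant, against 12.9% and 12.6% in wild type. All 4 mutant libraries lay above both wild type libraries. The log2 ratio of roX2 to roX1, with 1 RPKM added to each, averaged -2.31 ± 0.22 in H3.3B K27R, -2.5 ± 0.1 in the double mutant and -2.73 ± 0.03 in wild type (SD, n = 2 each). The differences from wild type were 0.42 in H3.3B K27R and 0.23 in the double mutant, each with p = 0.33 in a two-sided exact permutation test, the smallest p that 2 against 2 libraries allow. Without H3.3B K27R replicate 2 the difference in that genotype was 0.263, and without double mutant replicate 1 that in the double mutant was 0.163. The ratio rests on 57 to 89 reads of roX2 per library, and the exact 95% Poisson interval of roX2 in wild type replicate 1 alone was 19.7 to 33.7 RPKM. The mutant genotypes differed by -0.19, the double mutant minus H3.3B K27R (p = 0.667, exact permutation test), and by -0.341 without H3.3B K27R replicate 1 and -0.0297 without H3.3B K27R replicate 2. roX1 exceeded roX2 by 4.55-fold and 5.69-fold in H3.3B K27R and by 5.51-fold and 6.1-fold in the double mutant, against 6.74-fold and 6.93-fold in wild type. The 3 comparisons of this ratio form 1 family, and none can reach significance in this design.

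msl-1, the gene of the scaffold protein, lies on chromosome arm 2L (chr2L:18683720-18688800, minus strand, BDGP6 annotation). It had 7.49 and 7.34 RPKM in H3.3B K27R and 8.93 and 6.1 RPKM in the double mutant, against 6.39 and 5.83 RPKM in wild type. Both H3.3B K27R libraries lay above both wild type libraries, and double mutant replicate 2 lay between the wild type libraries. Its fitted log2 fold change was 0.24 ± 0.23 (SE, 95% interval -0.32 to 0.8, adjusted p = 0.713 in limma) in H3.3B K27R and 0.24 ± 0.23 (SE, -0.32 to 0.8, adjusted p = 0.69 in limma) in the double mutant, each against wild type. Without double mutant replicate 1, the fold change of msl-1 in that genotype was -0.00124 on the log2 scale.

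msl-2 encodes a RING-finger ubiquitin ligase and also lies on 2L (chr2L:3462218-3466112, minus strand, BDGP6 annotation), where the annotation places mir-4971 within it. It had 9.64 and 6.33 RPKM in H3.3B K27R and 5.75 and 6.44 RPKM in the double mutant, against 5.56 and 9.46 RPKM in wild type. The wild type libraries were the farthest apart of any replicate pair of the 8 genes, by 0.67 in log2, and between them lay both double mutant libraries and 1 H3.3B K27R library. For msl-2 the log2 fold change was 0.09 ± 0.31 (SE, 95% interval -0.64 to 0.83, adjusted p = 0.94 in limma) in H3.3B K27R and -0.22 ± 0.31 (SE, -0.96 to 0.51, adjusted p = 0.789 in limma) in the double mutant, each against wild type. On a linear scale these intervals run from 0.64-fold to 1.78-fold and from 0.514-fold to 1.43-fold.

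msl-3, whose product carries a chromodomain, had the largest fold change of the 8 genes. It lies on 3L (chr3L:7123213-7125533, minus strand, BDGP6 annotation), and 85 bases of it overlap form3 on the other strand. It had 4.5 and 6.33 RPKM in H3.3B K27R and 10.9 and 6.94 RPKM in the double mutant, against 4.15 and 5.99 RPKM in wild type. Both double mutant libraries lay above the other 4 libraries. These values rest on 17 and 20 reads in H3.3B K27R and 36 and 21 reads in the double mutant, against 13 and 25 reads in wild type. The exact 95% Poisson interval of double mutant replicate 2, 4.3 to 10.6 RPKM, contained the value of wild type replicate 2. That of double mutant replicate 1, 7.65 to 15.1 RPKM, lay above the values of the other 5 libraries.

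In the double mutant against wild type, the log2 fold change of msl-3 was 0.7 ± 0.31 (SE, 95% interval -0.04 to 1.43, adjusted p = 0.363 in limma), or 0.975-fold to 2.7-fold on a linear scale. Against H3.3B K27R it was 0.61 ± 0.31 (SE, 95% interval -0.12 to 1.35, adjusted p = 0.479 in limma). In H3.3B K27R against wild type it was 0.08 ± 0.31 (SE, 95% interval -0.65 to 0.82, adjusted p = 0.95 in limma). Leaving out double mutant replicate 1 gave a log2 fold change of 0.4 against wild type, and leaving out replicate 2 of that genotype gave 0.99. Against H3.3B K27R the same omissions gave 0.32 and 0.91. The 4 fat body genes, none at 0, were also above both wild type libraries in the double mutant, with a sum of 2428.6 to 3033.8 RPKM in H3.3B K27R and 4037.6 to 5207.8 RPKM in the double mutant, against 2270.5 to 2698.8 RPKM in wild type. Over all genes tested, 44.6% did not overlap between the double mutant and wild type, in either direction. The part of the fat body genes in the level of msl-3 was not tested.

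mle, the helicase gene, lies on 2R (chr2R:5974857-5980778, minus strand, BDGP6 annotation) and overlaps no other annotated gene. It had 8.1 and 6.72 RPKM in H3.3B K27R and 8.11 and 6.31 RPKM in the double mutant, against 6.5 and 8.65 RPKM in wild type. The genotypes overlapped, with the highest library in wild type and the lowest in the double mutant. On the log2 scale the fold change was -0.02 ± 0.24 (SE, 95% interval -0.59 to 0.55, adjusted p = 0.984 in limma) in H3.3B K27R and -0.06 ± 0.24 (SE, -0.63 to 0.51, adjusted p = 0.938 in limma) in the double mutant, each against wild type. Of the differences from wild type in H3.3B K27R, that of mle was the closest to 0 among the 8 genes, and its sign turned under other scalings.

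mof, the acetyltransferase gene, is the only protein subunit gene on the X (chrX:5873840-5876853, minus strand, BDGP6 annotation). It had 4.67 and 3.31 RPKM in H3.3B K27R and 4.16 and 3.24 RPKM in the double mutant, against 5.0 and 3.44 RPKM in wild type, from 15 to 27 reads per library. In every genotype replicate 1 was the higher library, and the genotypes overlapped. The estimated log2 fold change was -0.06 ± 0.29 (SE, 95% interval -0.77 to 0.65, adjusted p = 0.961 in limma) in H3.3B K27R and -0.14 ± 0.29 (SE, -0.85 to 0.57, adjusted p = 0.869 in limma) in the double mutant, each against wild type.

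JIL-1 encodes a kinase that phosphorylates serine 10 of histone H3, and it lies on 3L (chr3L:11078752-11093193, minus strand, BDGP6 annotation). It had 14.6 and 15.3 RPKM in H3.3B K27R and 15.3 and 15.4 RPKM in the double mutant, against 16.4 and 18.8 RPKM in wild type. All 4 mutant libraries lay below both wild type libraries. The estimate of its log2 fold change was -0.22 ± 0.15 (SE, 95% interval -0.58 to 0.14, adjusted p = 0.595 in limma) in H3.3B K27R and -0.18 ± 0.15 (SE, -0.54 to 0.18, adjusted p = 0.645 in limma) in the double mutant, each against wild type. The mutant genotypes share the wild type libraries as their baseline, and without wild type replicate 2 the log2 fold changes of JIL-1 were -0.13 in H3.3B K27R and -0.09 in the double mutant. Without wild type replicate 1 they were -0.31 in H3.3B K27R and -0.27 in the double mutant. The testis genes were also lower in all 4 mutant libraries in sum, and below both wild type libraries one by one for 9 of 11 in H3.3B K27R and 8 of 11 in the double mutant, with 1 of the 11, aly, at 0 in 1 library, double mutant replicate 2. Over all genes tested, 44.9% did not overlap between H3.3B K27R and wild type and 44.6% between the double mutant and wild type, in either direction. The part of the testis in the levels of JIL-1 and roX1 and in the roX2 share was not tested.

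Between the mutant genotypes, the log2 fold changes of the 7 genes other than msl-3 ran from -0.32 for msl-2 to 0.07 for roX1, double mutant over H3.3B K27R. Their adjusted p values were 0.732 or above in limma. The 95% interval was narrowest for roX1 and JIL-1, and for JIL-1 it was -0.32 to 0.4.

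**Figure D2:**
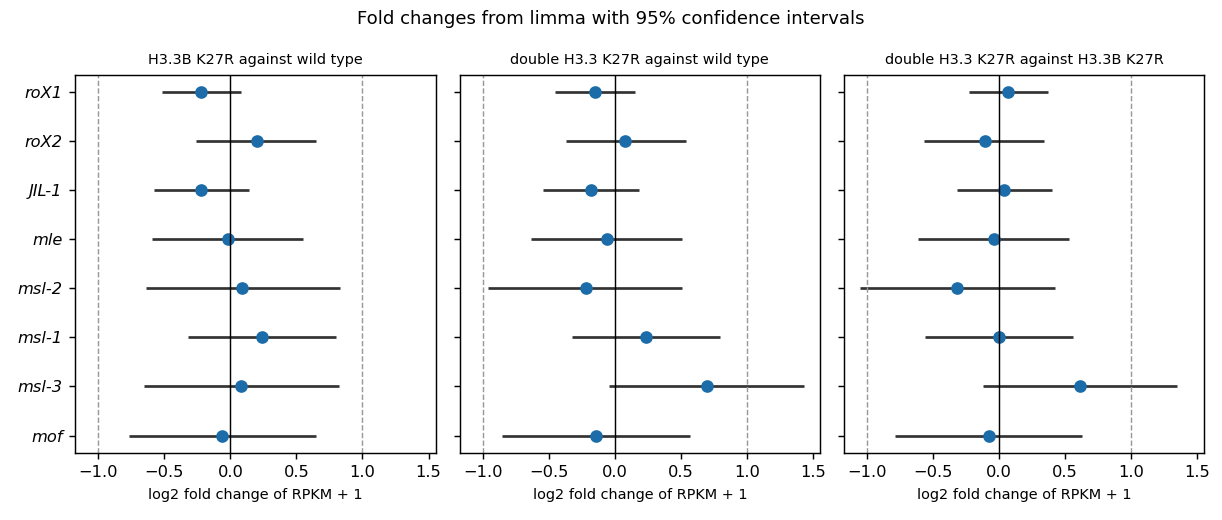
Log2 fold changes of RPKM + 1 for the 8 genes in the 3 comparisons, with points for the limma estimates and bars for their 95% confidence intervals. Dashed lines mark a 2-fold difference in either direction. All 24 intervals include 0, and that of msl-3 in double H3.3 K27R against wild type reaches closest to excluding it, from -0.04 to 1.43.

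Read as a group, the 8 genes did not share a direction. In H3.3B K27R against wild type 4 fold changes were positive and 4 negative, with a median of 0.031 against -0.0168 over all genes tested. For the double mutant against wild type, 3 were positive and 5 negative, with a median of -0.101 against -0.000493 over all genes tested. The libraries of the genotypes did not overlap for 3 of 8 genes in H3.3B K27R against wild type (msl-1, roX1 and JIL-1), where 44.9% of all genes tested did not overlap. They did not overlap for 2 of 8 in the double mutant against wild type (msl-3 and JIL-1), where the share over all genes tested was 44.6%. In the double mutant against H3.3B K27R only msl-3 did not overlap, where the share over all genes tested was 44.7%. The median absolute log2 fold change of the members was 0.145, 0.165 and 0.0761 in the 3 comparisons in that order, against 0.241, 0.249 and 0.229 over all genes tested.

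The 5 protein subunit genes summed to 34.4 and 30.0 RPKM in H3.3B K27R and 37.9 and 29.0 RPKM in the double mutant, against 27.6 and 33.4 RPKM in wild type. The genotypes overlapped in this sum. The share of msl-3 in it was 13.1% and 21.1% in H3.3B K27R males, 28.8% and 23.9% in the double mutant and at most 18.0% in wild type, so that the shares in the double mutant were the highest. The share of mle stayed within 21.4% to 25.9% over all 6 libraries. roX1 exceeded the summed protein subunit genes by 4.58-fold and 5.76-fold in H3.3B K27R and by 4.67-fold and 5.87-fold in the double mutant, against 6.36-fold and 6.34-fold in wild type.

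The median absolute log2 difference between the replicates of a genotype was 0.317 for the 8 genes in H3.3B K27R, 0.24 in the double mutant and 0.316 in wild type. Over all genes tested the corresponding medians were 0.214, 0.253 and 0.263, so that replicates of the members were farther apart than those of the median gene in H3.3B K27R and wild type but not in the double mutant. The spread over the 6 libraries differed between the genes. JIL-1, with 157 to 264 reads per library, had a coefficient of variation of 9.4% over the 6 libraries and roX1 one of 10.2%, whereas msl-2, with 34 to 77 reads, had 25.8% and msl-3, with 13 to 36 reads, had 37.5%. Between these lay mle with 13.5%, roX2 with 14.3%, msl-1 with 16.4% and mof with 19.0%.

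The X-linked genes are the targets of the complex, and their level relative to genes on the autosomal arms was measured in each library. The log2 level of each gene was expressed against its wild type mean, and the median over 9253 autosomal genes was subtracted from that over 1756 X-linked genes. The result, a log2 difference, was 0.0697 and 0.0631 in the H3.3B K27R libraries and 0.0724 and 0.0518 in the double mutant, against 0.00137 and -0.00137 in wild type. The wild type values mirror each other by construction, and all 4 mutant libraries share the wild type mean as their baseline. The mean difference from wild type was 0.0664 in H3.3B K27R, or 1.05-fold, and 0.0621 in the double mutant, or 1.04-fold, each with p = 0.33 in a two-sided exact permutation test, the smallest that 2 against 2 libraries allow. Between the mutant genotypes it was -0.00428, the double mutant minus H3.3B K27R (p = 1.0, exact permutation test). These 3 comparisons form 1 family. The X-linked genes were above wild type by this measure in all 4 mutant libraries. At an adjusted p below 0.05 in limma, the X-linked genes numbered 2 higher plus 2 lower in H3.3B K27R and 11 higher plus 5 lower in the double mutant. In H3.3B K27R this was 0.228% of the X-linked genes, against 0.0324% of the autosomal genes and 0.0619% of all genes tested. In the double mutant it was 0.911% of the X-linked genes, against 0.832% of the autosomal genes and 0.832% of all genes tested.

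With the genes divided by mean expression into 4 bins of equal size, the difference from wild type was positive in all 4 bins of both mutant genotypes, without a steady rise or fall over the bins. From the lowest to the highest bin it was 0.038, 0.0673, 0.0482 and 0.0952 for H3.3B K27R. For the double mutant it was 0.067, 0.0676, 0.0299 and 0.0805. The lowest bin of the double mutant averages 0.1 in replicate 1 and 0.0335 in replicate 2. For the 84 genes of chromosome 4, a chromosome with its own targeting protein, the difference from wild type was 0.0676 in H3.3B K27R and 0.02 in the double mutant, within an SD of 0.129 between the wild type libraries. The testis genes, given above, were lower in the same 4 mutant libraries, and their part in the difference between the X and the autosomes was not tested.

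**Figure D3:**
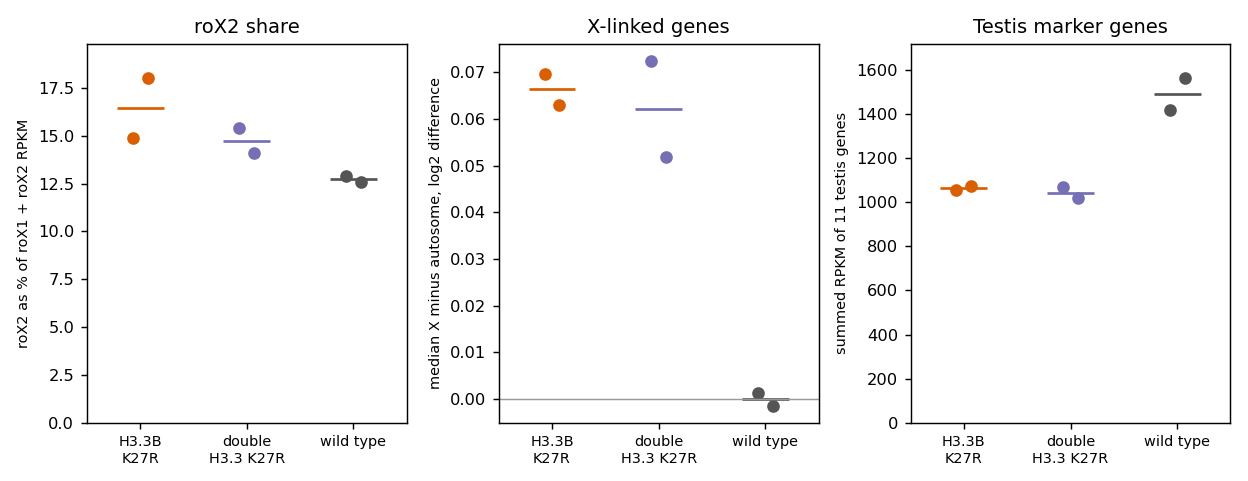
Measures of each library, with each point 1 library and each line the mean of a genotype. Shown are roX2 as a percentage of the RPKM of roX1 and roX2, the X minus autosome log2 difference, and the summed RPKM of 11 testis genes. In the first 2 panels the 4 mutant libraries lie above both wild type libraries, and in the last they lie below them.

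Genes within 50 kb of the roX genes, which are themselves sites where the complex enters the X, were counted next. Of the 6 genes tested around roX1, 5 had a positive fold change in H3.3B K27R and 4 in the double mutant, with a median of 0.26 in each, against medians of 0.0412 and 0.0573 over all X-linked genes. None of the 6 had an adjusted p below 0.05 or an unadjusted p below 0.05 in limma, and with voom 1 had an unadjusted p below 0.05 in each comparison and none an adjusted p below 0.05. The log2 fold changes of ec, which overlaps roX1, were 0.24 in H3.3B K27R and -0.18 in the double mutant. The largest belonged to CG42541, with 3.98 and 3.21 RPKM in H3.3B K27R and 3.75 and 3.89 RPKM in the double mutant, against 2.2 and 2.19 RPKM in wild type. Its log2 fold changes were 0.52 ± 0.26 in H3.3B K27R (SE, adjusted p = 0.477 in limma) and 0.59 ± 0.26 in the double mutant (SE, adjusted p = 0.368 in limma). The next largest was yin in H3.3B K27R, with 0.34, and in the double mutant CG2901 and CG2930, with -0.32 and 0.32.

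Of the 17 genes tested around roX2, 11 had a positive fold change in each mutant genotype, with a median of 0.21 in H3.3B K27R and 0.17 in the double mutant. None had an adjusted p below 0.05, and 0 in H3.3B K27R and 2 in the double mutant had an unadjusted p below 0.05 in limma, against 1 and 2 with voom. Over all genes tested, 12.4% and 14.8% had an unadjusted p below 0.05 in limma in these comparisons. The 2 from limma, named after their values were seen, were CG1572, with 0.75 ± 0.24 in the double mutant (SE, adjusted p = 0.235 in limma), and CG2247, with 0.71 ± 0.26 (SE, adjusted p = 0.287 in limma). The largest fitted values belonged to genes with hardly any reads, namely e(y)2 with 0 to 10 reads per library, PGRP-SA with 0 to 7 and mir-2492 with 0 to 1, for which a fold change is not informative.

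The genes that work with the complex, 24 in a list by role, were all in the table, and 23 passed the filter on low values. None was called and none had an adjusted p below 0.05 in any comparison, while 1 of 23 in H3.3B K27R and 2 of 23 in the double mutant, both against wild type, and 1 of 23 in the double mutant against H3.3B K27R had an unadjusted p below 0.05 in limma. With voom these counts were 2, 2 and 2, and again none had an adjusted p below 0.05. In the same order, 12.4%, 14.8% and 12.5% of all genes tested had an unadjusted p below 0.05 in limma. The gene left out by the filter was Clamp, listed under the older symbol CG1832, whose zinc-finger protein brings the complex to its entry sites. It had 0 to 2 reads per library and 4 in all, and its annotation is shared in part with CG42748 on the other strand, so its level could not be assessed.

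Among the 10 tested genes for recruitment and chromosome contacts, 5 fold changes were positive in H3.3B K27R and 7 in the double mutant. Set2, which encodes the methyltransferase for lysine 36 of histone H3, had -0.34 ± 0.19 in H3.3B K27R (SE, adjusted p = 0.527 in limma), and Chro, for a chromodomain protein of interbands, had 0.28 ± 0.33 (SE). In the double mutant the largest were those of pzg, described next, and of Iswi, the gene of a nucleosome-remodelling ATPase, with 0.39 ± 0.22 (SE, adjusted p = 0.489 in limma). The zinc-finger gene pzg had 10.5 and 10.1 RPKM in H3.3B K27R and 14.2 and 14.0 RPKM in the double mutant, against 10.6 and 10.5 RPKM in wild type. Its log2 fold change in the double mutant was 0.39 ± 0.16 (SE, adjusted p = 0.328 in limma, with an unadjusted p below 0.05), and both double mutant libraries lay above the other 4.

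Control of msl-2 translation was represented by Sxl, for Sex-lethal, by Unr, its partner on the msl-2 messenger RNA, and by the RNA-binding protein gene how. Their log2 fold changes lay between -0.00335 and 0.15 in H3.3B K27R and between -0.07 and 0.16 in the double mutant. Sxl itself had 0.15 ± 0.13 in H3.3B K27R and -0.01 ± 0.13 in the double mutant (SE). Male Sxl transcripts do not encode a functional protein, and gene totals do not separate the male from the female splice form.

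MOF also acts in the NSL complex, which sits at promoters of active genes on all chromosomes. Of the NSL genes in the double mutant, 6 of 6 had a positive fold change, with a median of 0.21 against -0.000493 over all genes tested, and in H3.3B K27R 5 of 6, with a median of 0.14 against -0.0168. None of the 6 had an unadjusted p below 0.05 in limma in either comparison. The largest were Rcd5 with 0.39 ± 0.23 and wds with 0.26 ± 0.2 in the double mutant, and wds with 0.24 ± 0.2 and Rcd5 with 0.2 ± 0.23 in H3.3B K27R (SE).

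Of the heterochromatin genes and the chromosome 4 factor, Pof had the lowest p in both mutant genotypes. Its product binds chromosome 4. It had 87.8 and 87.2 RPKM in H3.3B K27R and 91.1 and 86.0 RPKM in the double mutant, against 112.4 and 123.1 RPKM in wild type. All 4 mutant libraries lay below both wild type libraries. Its log2 fold change was estimated as -0.42 ± 0.1 in H3.3B K27R (SE, adjusted p = 0.244 in limma) and -0.41 ± 0.1 in the double mutant (SE, adjusted p = 0.165 in limma). The unadjusted p was below 0.05 in both, and neither passed the threshold after adjustment. The testis genes were lower in the same 4 libraries, and their part in the level of Pof was not tested. The gene of the heterochromatin protein HP1a had 0.27 ± 0.16 in H3.3B K27R and 0.21 ± 0.16 in the double mutant (SE). Su(var)3-9 had 0.78 ± 0.4 in the double mutant (SE, adjusted p = 0.447 in limma) from 2 to 7 reads per library.

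**Figure D4:**
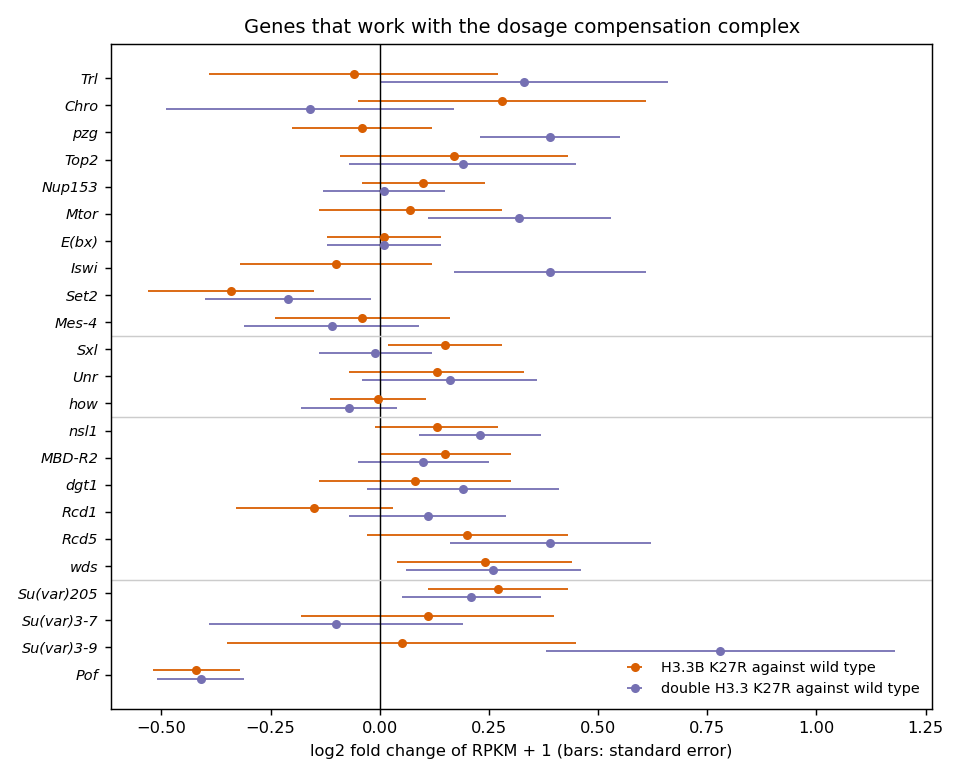
Log2 fold changes of RPKM + 1 against wild type for 23 genes that work with the complex, in H3.3B K27R (orange) and double H3.3 K27R (violet), with points for the limma estimates and bars for their standard errors. Grey lines separate the groups for recruitment, translation of msl-2, the NSL complex and heterochromatin. Both estimates of Pof lie near -0.4, and none of the 23 genes passed an adjusted p of 0.05.

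The genes whose log2 levels ran most closely with those of roX1, roX2 and msl-2 over the 6 libraries were listed as a description. With only 6 libraries, which also share depth and genotype, such values are given for the closest of 11304 genes and without a test. For roX1 they were ocn, CG15760 and RnrS, with Pearson r of 0.992, 0.985 and 0.981 (n = 6 libraries). For roX2 they were Cyp28c1, 14-3-3zeta and CG40228, with 0.993, 0.988 and 0.97. For msl-2 they were CG13875, CG17754 and CR44185, with 0.989, 0.988 and 0.979.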

How the data were processed

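RNA was extracted by the authors from pools of whole pharate adult males, with 2 libraries for each of 3 genotypes, grouped here by their labels. Per the labels, STAR 2.5.2b, SAMtools 1.3.1, Subread 1.28.1 and DESeq2 1.18.1 are named in the submitters' processing notes, with a modified dm3 genome. RPKM values of 15115 genes were deposited by the authors. Totals of reads on genes were recovered from the commonest ratios of RPKM values between libraries. The length of each gene was then set so that its values became whole reads. That all 73342 values above 0 lay within 0.01 of whole reads is therefore no check of the recovery. Recovered reads summed over genes reached at least 99.767% of the total in every library. No column of other samples was used. A second deposited table holds DESeq2 fold changes and p values of the authors' own comparisons and was not used. Since RPKM values are not counts, the DESeq2 test of the paper was not the main test.

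log2(RPKM + 1) was fitted for the 11304 genes averaging 1 RPKM or more, with limma 3.58.1 in R 4.3.3 (lmFit, eBayes with a trend, two-sided) with all 6 libraries and genotype as the only factor, and 3 residual and 3.43 prior degrees of freedom. The labels do not say that replicates were separate crosses, so p values measure the spread between these libraries. Poisson intervals are exact and cover counting error only. Differences measured by 1 value per library were tested by exact permutation. Positions are from the BDGP6 annotation, which is not the authors' dm3 build and was used for identity, chromosome arm and distance only. 14774 genes matched it. The fit was tested on simulated data.

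The 8 members were described in full. For the lists of partners the 2 genes with the largest absolute fold change per list and comparison were named, likewise for genes within 50 kb of roX1 and roX2, and the 3 genes most alike to roX1, roX2 and msl-2. The members and lists were chosen with earlier results of these data known. Alternatives were a pseudocount of 0.1, no filter, quantile normalization, centring on library medians, voom on recovered reads, a fit restricted to the 2 genotypes in question, a replicate block, an adjusted p below 0.05 with no threshold on the fold change, each library left out in turn and, for the X minus autosome difference, a mean RPKM of at least 5 and means over genes.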

Additional observations from a re-analysis of the deposited data

How the results depend on the processing

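None of the 336 alternative fits of a member passed the threshold. The sign was kept in 308 and turned in 28, which fell on 15 of the 24 pairs of member and comparison. Adjusted p values were 0.23 or above. The 308 overstate how stable the signs were, because some alternatives leave the fitted fold change as it is and could not turn it. These were no filter, a fit restricted to the genotypes compared, a replicate block in either pairing, and leaving out a library of the genotype not compared. Outside the fits that left out a library, the sign turned for mle in H3.3B K27R against wild type (0.03 with quantile normalization and 0.03 with centring on medians), and in double H3.3 K27R against H3.3B K27R for msl-1 (0.00273 with voom) and JIL-1 (-0.00463 with quantile normalization and -0.01 with centring).

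With each library left out in turn, log2 fold changes in H3.3B K27R against wild type ranged over -0.24 to 0.43 for msl-2, -0.14 to 0.3 for msl-3, -0.2 to 0.16 for mle, -0.28 to 0.15 for mof and -0.03 to 0.42 for roX2. In double H3.3 K27R against wild type they ranged over -0.00124 to 0.48 for msl-1, -0.56 to 0.11 for msl-2, -0.24 to 0.12 for mle, -0.36 to 0.07 for mof and -0.03 to 0.2 for roX2. In double H3.3 K27R against H3.3B K27R they ranged over -0.25 to 0.24 for msl-1, -0.2 to 0.12 for mle, -0.28 to 0.12 for mof and -0.34 to 0.11 for roX2, and the X minus autosome difference over -0.0146 to 0.00602. Among those that kept their sign, msl-3 ranged over 0.4 to 0.99 in double H3.3 K27R against wild type and 0.32 to 0.91 against H3.3B K27R, and JIL-1 against wild type over -0.31 to -0.13 (H3.3B K27R) and -0.27 to -0.09 (the double mutant). The difference in the log2 ratio of roX2 to roX1 ranged over 0.263 to 0.575 and 0.163 to 0.304 in these comparisons, and -0.341 to -0.0297 in double H3.3 K27R against H3.3B K27R. The lone library of a genotype was then assumed to vary like the others.

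Over all genes, the count called in H3.3B K27R against wild type was 1. It was 7 at an adjusted p below 0.05 alone, 7 with voom and 0 to 1 with a library left out. In double H3.3 K27R against wild type it was 15, but 94 at an adjusted p below 0.05 alone, 53 with voom, 4 with only the 2 genotypes compared and 1 to 5 with a library left out. In double H3.3 K27R against H3.3B K27R it was 7, but 35 at an adjusted p below 0.05 alone, 40 with voom, 4 with no filter, 2 with only the 2 genotypes compared and 2 with a library left out. The causes were not tested.

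Same-numbered libraries did not deviate together, with correlations of 0.0165 (H3.3B K27R and wild type), -0.209 (double H3.3 K27R and wild type) and 0.00931 (double H3.3 K27R and H3.3B K27R), and the numbers were not taken as pairs. With the replicate block 1, 3 and 2 genes were called in the 3 comparisons. With the 2 numbers of the double mutant exchanged, a pairing added after the data were seen, 1, 3 and 2 genes were called. In neither fit was a member called. With the numbers exchanged, msl-3 had an unadjusted p below 0.05 in the double mutant against wild type and against H3.3B K27R. The adjusted p values were 0.23 and 0.305 in limma.

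Depth limits the protein subunit genes most, with 13 to 36 reads per library for msl-3 and 15 to 27 for mof. A difference of 2-fold lay within the 95% interval of msl-3 in double H3.3 K27R, both against wild type and against H3.3B K27R. It also lay within that of msl-2 in double H3.3 K27R against H3.3B K27R, -1.05 to 0.42.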
